A study of Homo sapiens with 4 samples.

Results

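Interferon-stimulated genes are the genes that cells switch on when an interferon binds its receptor, and 49 of them, chosen by name, were followed in PC3 prostate cancer cells. The deposited table had 43622 genes and held all 49. PC3, a human prostate cancer line long kept in culture, was compared with PC3-shp14ARF, the same line carrying a short hairpin RNA (shRNA) against p14ARF that was brought in stably by a retrovirus and selected with hygromycin. Each line received either the vehicle DMSO or 1 µM MLN4924, an inhibitor of the NEDD8-activating enzyme, for 3 days, which gave the conditions Ctrl (PC3 with DMSO), MLN (PC3 with MLN4924), shARF (PC3-shp14ARF with DMSO) and Both (PC3-shp14ARF with MLN4924). Each condition had 3 RNA-seq libraries, named here by the number in their column. No control shRNA is named for the Ctrl and MLN cells, so the hairpin, the retrovirus and the selection cannot be told apart from the loss of p14ARF. The sources do not say whether the libraries of a condition came from separate cultures, and the p-values then measure only the spread between these libraries.

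Type I and type III interferons act through the kinases JAK1 and TYK2 on STAT proteins such as STAT2, which join IRF9 and bind the interferon-stimulated response element (ISRE) in the promoters of their targets. Interferon gamma acts through JAK1 and JAK2, and its targets carry another sequence, the gamma-activated site (GAS), and include IRF1. The products of the target genes sense viral RNA, cut or hold back RNA, block the entry of viruses, attach the ubiquitin-like protein ISG15 to other proteins, cut peptides for presentation, or, in the case of STAT2, IRF9, IRF1 and IRF7, carry the signal further.

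A promoter sequence was given in RefSeq (GRCh38.p14) for 40 of the 49 genes and not for OASL, OAS2, MX2, IRF7, IFIT2, IFITM2, TRIM22, USP18 and DHX58. In the 250 bases before the gene start, the core of the ISRE (GAAA, any 2 bases, GAAA, on either strand) was found for 23 of the 40 genes (57.5%), against 3.71% of 27305 genes with a promoter in the same set. The GAS letters (TTC, any 3 bases, GAA, the same on both strands) were found for 13 of the 40 (32.5%), against 8.09% of all genes. Several genes have more than 1 start, and per distinct start the ISRE core was found in 49.1% of the promoters of these genes and in 3.02% of all. The motifs can share bases, as they do before EPSTI1, IFI27 and MX1. These are matches of letters and say nothing on binding. The following stretches, each written in the direction of its gene with the core in capitals, are a selection from genes described below, chosen to show the cores before genes of different roles and responses. The first group shows the ISRE core.
RSAD2, chr2:6877622-6877651, plus strand: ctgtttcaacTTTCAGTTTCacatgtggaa
GBP1, chr1:89065316-89065345, minus strand: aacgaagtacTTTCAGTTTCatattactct
SAMD9, chr7:93118096-93118125, minus strand: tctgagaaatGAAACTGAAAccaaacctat
IFITM1, chr11:313990-314019, plus strand: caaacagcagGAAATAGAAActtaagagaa
IFITM3, chr11:320876-320905, minus strand: aaactgttgaGAAACCGAAActactgggga
IFI6, chr1:27672266-27672295, minus strand: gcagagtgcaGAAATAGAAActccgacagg
ISG15, chr1:1013374-1013409, plus strand: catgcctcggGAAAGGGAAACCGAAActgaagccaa
IFIT1, chr10:89392497-89392539, plus strand: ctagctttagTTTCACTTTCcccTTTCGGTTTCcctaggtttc
IFIT3, chr10:89327865-89327894, plus strand: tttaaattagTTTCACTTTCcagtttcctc
ISG20, chr15:88638937-88638966, plus strand: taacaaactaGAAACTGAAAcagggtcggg
CXCL10, chr4:76023699-76023728, minus strand: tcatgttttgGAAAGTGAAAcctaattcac
The second group shows the GAS letters, found before 2 of the 3 transcription factors with a promoter sequence and before PSMB8.
IRF1, chr5:132490879-132490907, minus strand: acagcctgatTTCCCCGAAatgacggcac
IRF9, chr14:24161192-24161220, plus strand: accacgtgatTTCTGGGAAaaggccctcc
PSMB8, chr6:32844094-32844122, minus strand: aactgtccttTTCTCGGAAaaggcagggg
The ISRE core thus stands before genes that moved in opposite directions under MLN4924, such as RSAD2 and CXCL10. The median log2 fold change with MLN4924 in PC3 cells was 1.54 over the 23 genes with the core and 1.50 over the 17 without it.

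The values are TPM, transcript abundances that allow for gene length but carry no read depth, so no interval for counting error was given. CDKN2A encodes p14ARF and also p16INK4a, which the gene's value does not separate, and its level was 183 ± 6.49 TPM for Ctrl, 118 ± 16.4 for MLN, 59.3 ± 1.47 for shARF and 47.5 ± 6.40 for Both (SD, n = 3 each). The epithelial markers KRT8, KRT18, KRT19, EPCAM and CDH1 summed to 907 to 1004 TPM in Ctrl, 439 to 504 in MLN, 1138 to 1280 in shARF and 433 to 449.9 in Both, while KLK3 of the prostate luminal lineage was at 0. The sum of 4 fibroblast markers ranged from 13.3 to 15.7 TPM for Ctrl and from 19.4 to 22.02 TPM for MLN. For shARF it ranged from 53.1 to 64.0 TPM, and for Both from 10.1 to 11.2 TPM. Its main genes moved in opposite directions. COL1A2 averaged 6.73 TPM in Ctrl and 54.5 TPM in shARF (log2 fold change 3.00), while COL1A1 went from 7.27 to 4.04 TPM (−0.83). With MLN4924 in PC3 cells, COL1A1 was higher (log2 fold change 1.32) and COL1A2 lower (−2.12). The sum of 3 endothelial markers was 11.0 to 12.6 TPM in Ctrl, 0.679 to 1.03 in MLN, 1.88 to 1.97 in shARF and 0.160 to 0.262 in Both, most of it PECAM1. The part of these shifts in the results was not tested. Mitochondrial transcripts took 6.04% to 13.2% of the total over the 12 libraries.

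Interferon-stimulated genes were already transcribed without treatment. In Ctrl, 47 of the 49 averaged 1 TPM or more and 10 averaged 100 TPM or more, with IFI6, a protein of mitochondria and the endoplasmic reticulum, at the top (749 TPM) and a median over the genes of 30.1 TPM. DHX58, which encodes the sensor LGP2, was at 0.156 TPM or less in every library and was the only member left out of the tests, which took genes that averaged 0.1 TPM or more. Summed over the 49 genes, the level was 3890 to 4179 TPM in Ctrl, 13790 to 14117 in MLN, 4821 to 6050 in shARF and 7578 to 8440 in Both. The ranges did not overlap and stood, from low to high, in the order Ctrl, shARF, Both and MLN. The lowest shARF library was number 1 (4821 TPM), and the other shARF libraries were at 5679 and 6050 TPM. In libraries of whole cultures, more cells that express a gene and more RNA per cell cannot be told apart.

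**Figure D1:**
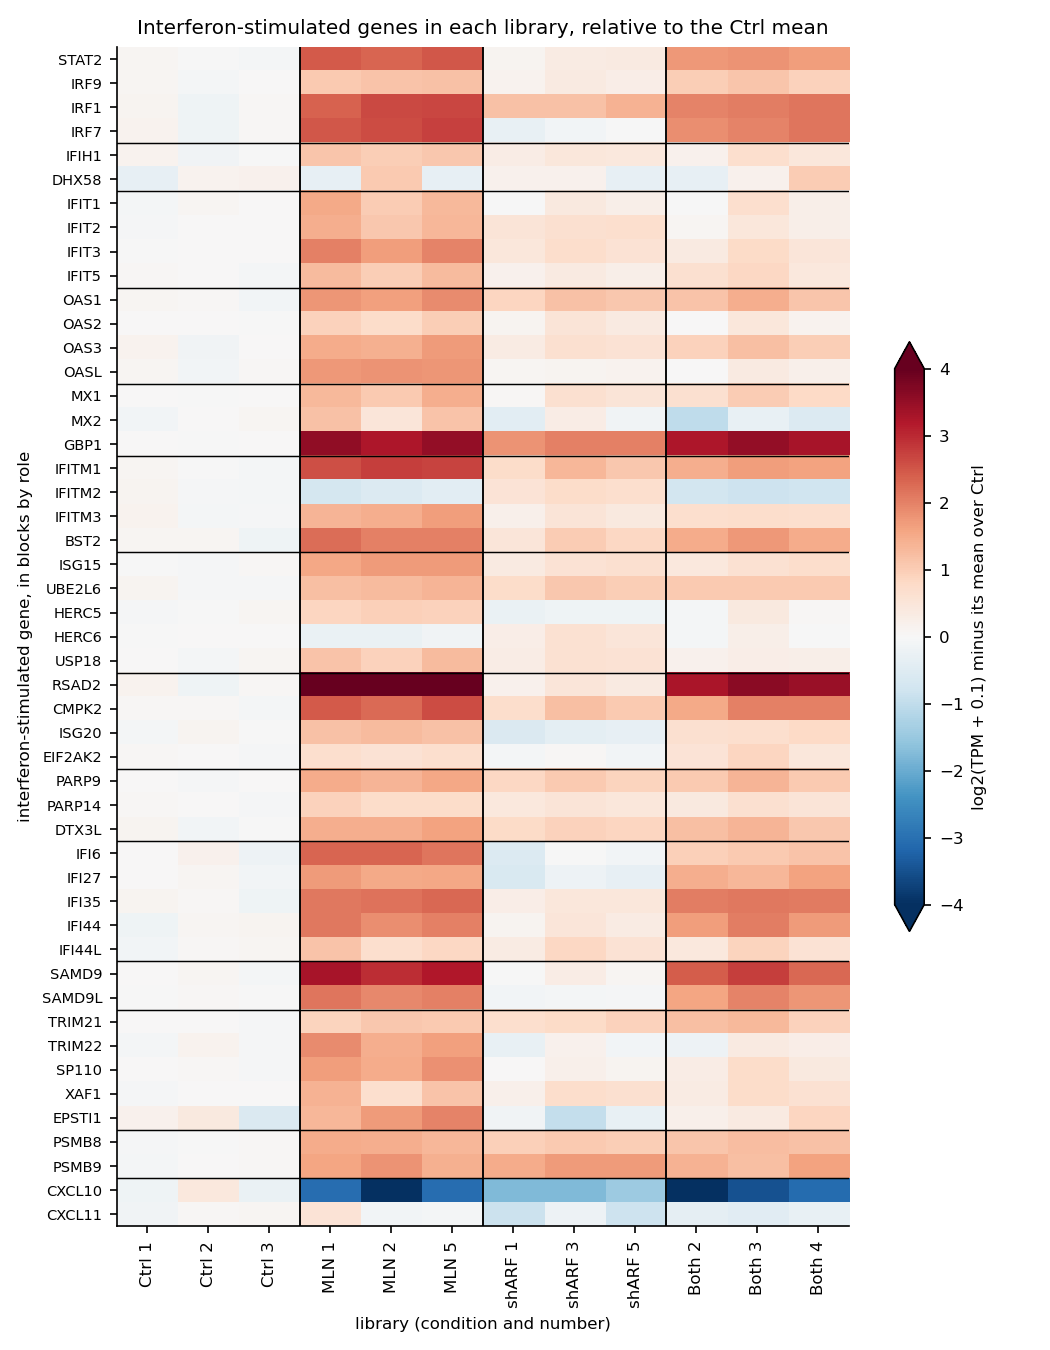
Each row is an interferon-stimulated gene, in blocks by role, and each column a library. Colour gives log2(TPM + 0.1) minus its mean over the Ctrl libraries, on a scale that ends at 4 in either direction. The MLN columns are red for nearly all genes, the Both columns are paler in most rows, and CXCL10 is blue in every column outside Ctrl.

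MLN4924 in PC3 cells raised nearly the whole family. Fold changes were computed on log2(TPM + 0.1), which makes the change of low genes look smaller, and tested with limma over the 19932 genes that passed the filter. At a Benjamini-Hochberg adjusted p below 0.05, 44 of the 48 tested genes were higher in MLN than in Ctrl, where 32.2% of all genes were. Only CXCL10, IFITM2 and HERC6 were lower (background 29.4%), and CXCL11 was not called. Above a log2 fold change of 1, which 15.6% of all genes passed, there were 38 of the 48, and above 2 there were 12 (6.15% of all genes). CXCL10 was the 1 gene lower by more than 1 (12.4% of all genes) and by more than 2 (3.29%). The median log2 fold change of the 48 genes was 1.50, and that of all genes was 0.05.

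RSAD2, which encodes the antiviral radical enzyme viperin, had the largest rise. It was at 7.14, 5.72 and 6.73 TPM in Ctrl and at 132, 105 and 104 TPM in MLN, a 17.4-fold difference of the means (log2 difference 4.10, with a standard error, SE, of 0.12, adjusted p = 5.74e-06). GBP1, a guanylate-binding GTPase that attacks the vacuoles of intracellular pathogens, went from 14.1, 13.8 and 14.0 TPM to 165, 131 and 162 TPM (log2 difference 3.43, SE 0.09, adjusted p = 4.10e-06). For both genes each MLN library lay far above every Ctrl library. SAMD9, an antiviral factor that holds back translation, was at 29.6, 30.8 and 28.1 TPM in Ctrl and 293, 227 and 273 TPM in MLN, 8.96-fold higher (log2 difference 3.15, adjusted p = 6.27e-06). IFITM1, a membrane protein that blocks the fusion of viruses with the cell, was at 275, 254 and 247 TPM in Ctrl and at 1557, 1773 and 1696 TPM in MLN (log2 difference 2.70, adjusted p = 4.80e-06). In MLN its mean was 1675 TPM, beside 1681 TPM for IFITM3 and 3584 TPM for IFI6, the highest member.

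All 4 transcription factors rose. STAT2, the partner of IRF9, went from 48.0, 44.9 and 43.3 TPM to 248, 228 and 254 TPM (log2 difference 2.42, SE 0.06, adjusted p = 3.59e-06). IRF7, the main amplifier of type I interferon genes, went from 25.5, 20.8 and 24.1 TPM to 132, 144 and 155 TPM (log2 difference 2.61, adjusted p = 9.41e-06). IRF1 went from 9.50, 7.69 and 9.04 TPM to 45.3, 54.6 and 56.2 TPM (log2 difference 2.56, adjusted p = 1.67e-05). The rise of IRF9, the DNA-binding part of the complex with STAT2, was smaller, from 79.6, 71.2 and 75.6 TPM to 156, 167 and 169.6 TPM (log2 difference 1.12, adjusted p = 2.82e-05).

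The effector families rose together in MLN. All 4 IFIT genes, whose products bind foreign RNA, were called higher, between 1.17 and 1.89 on the log2 scale, with IFIT3 at the top. Of the 4 OAS genes, which make the 2-5A messenger that turns on RNase L or resemble such enzymes, all were higher, from 0.88 for OAS2 to 1.77 for OAS1. The 5 genes named IFI rose by 0.89 (IFI44L) to 2.26 (IFI6), and the SAMD9 neighbour SAMD9L by 2.02. ISG15 went from 420.0, 407 and 439.8 TPM to 1238, 1368 and 1374.5 TPM (log2 difference 1.65, adjusted p = 1.39e-05), and its removing protease USP18 from 29.4, 27.7 and 30.9 TPM to 65.3, 55.3 and 70.5 TPM (log2 difference 1.11). USP18 has a near-identical copy in the genome, USP41, and how reads were shared between them is not stated. The immunoproteasome subunits PSMB8 and PSMB9 rose by 1.42 and 1.60.

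The genes not called higher were both CXCR3 chemokines, IFITM2 and HERC6. CXCL10, a chemokine for T cells, fell from 3.45, 5.22 and 3.23 TPM in Ctrl to 0.376, 0.128 and 0.385 TPM in MLN, with no overlap (log2 difference −3.41, SE 0.37, adjusted p = 0.000404). Its neighbour CXCL11, which binds the same receptor CXCR3, was at 4.26 to 4.94 TPM in Ctrl and 4.33 to 6.81 TPM in MLN (log2 difference 0.12, adjusted p = 0.632). IFITM2 fell from 385, 346 and 341 TPM to 219, 245 and 269 TPM (log2 difference −0.55, adjusted p = 0.00274), while IFITM1 and IFITM3 beside it on chromosome 11 rose. The log2 ratio of IFITM1 to IFITM2 was 3.25 higher in MLN than in Ctrl with no overlap of the libraries, and the exact two-sided permutation test gave p = 0.1, the smallest that 3 against 3 libraries allow. The IFITM genes share much sequence, and how reads that match several of them were counted is not stated, so their separate levels are uncertain. HERC6, a relative of the main human ISG15 ligase HERC5, was at 17.6, 17.7 and 17.6 TPM in Ctrl and at 14.6, 14.8 and 16.1 TPM in MLN (log2 difference −0.21, adjusted p = 0.0183), a call that was lost without Ctrl replicate 3 (adjusted p = 0.0555) or MLN replicate 2 (0.0575). HERC5 rose from 14.1, 14.4 and 15.4 TPM to 26.6, 28.5 and 27.9 TPM (log2 difference 0.92).

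The same drug in PC3-shp14ARF cells raised fewer members and by less. In Both against shARF, 24 of the 48 genes were higher (28.3% of all genes were) and 5 were lower, where 32.8% of all genes were. Above a log2 fold change of 1 there were 11 (13% of all genes) and above 2 there were 3 (5.58%), while 2 were lower by more than 1 (13.4%) and 1 by more than 2 (3.61%). The median over the 48 was 0.34, against −0.04 for all genes. With the libraries scaled by the median of ratios the counts were 28 higher and 2 lower. The 5 lower genes were CXCL10, IFITM2, HERC6, IFIT2 and USP18, and their number fell to 1 without shARF replicate 3 or shARF replicate 5 and to 2 without Both replicate 2 or Both replicate 4. All 24 higher genes were also higher in MLN against Ctrl, as were 44 of all 48 members, in a comparison that shares no library with this one.

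RSAD2 again had the largest rise, from 7.26, 9.19 and 8.37 TPM in shARF to 63.5, 81.2 and 72.3 TPM in Both (log2 difference 3.11, SE 0.12, adjusted p = 9.60e-06). SAMD9 rose from 29.4, 35.9 and 30.9 TPM to 158, 199 and 146 TPM (log2 difference 2.38, adjusted p = 3.27e-05). IRF7 rose from 18.9, 21.6 and 23.2 TPM to 85.7, 93.6 and 104 TPM (log2 difference 2.15, adjusted p = 1.82e-05). In all of these genes the Both libraries lay above every shARF library. IFI27, a small protein of the same family as IFI6, rose from 75.4, 101 and 91.5 TPM to 316, 294 and 356 TPM (log2 difference 1.85, adjusted p = 6.63e-05). STAT2 rose by 1.48, GBP1 by 1.40, IRF1 by 0.82 and IRF9 by 0.74, so all 4 transcription factors were called higher in this line too.

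The other families differed in PC3-shp14ARF cells. The antiviral enzyme genes RSAD2, CMPK2, ISG20 and EIF2AK2, SAMD9, SAMD9L and 4 of the 5 genes named IFI were called higher. Of the IFITM genes and BST2, all but IFITM2 were called higher. The IFIT, OAS and ISG15 families had fewer such calls. Of the 4 IFIT genes 1 was higher (IFIT5) and 1 lower (IFIT2), and of the 4 OAS genes 1 was higher (OAS3). Of the 5 genes of ISG15 conjugation and HERC ligases 2 were lower (HERC6 and USP18). Over all genes, 28.3% were higher and 32.8% lower. The calls of IFIT5, HERC6 and IFITM3 were each lost in at least 1 fit that left out a library. ISG15 was at 538, 624 and 653 TPM in shARF and at 566, 641 and 682 TPM in Both (log2 difference 0.06, SE 0.10, adjusted p = 0.651). IFIT3 was at 150.1, 178 and 163 TPM in shARF and 139, 185 and 150.4 TPM in Both (log2 difference −0.06, adjusted p = 0.704), and OASL, an OAS relative without the synthetase activity, at 43.6, 44.6 and 44.9 TPM and 41.1, 52.4 and 47.5 TPM (log2 difference 0.08, adjusted p = 0.493). The libraries of the 2 conditions overlapped for each of these genes. IFIT2 was lower in Both at 53.1, 68.7 and 58.9 TPM than in shARF at 71.2, 77.5 and 79.6 TPM (log2 difference −0.34, adjusted p = 0.0277), and without any of 4 libraries this call was lost, with an adjusted p of up to 0.0918 without shARF replicate 5. USP18 was likewise lower (log2 difference −0.26, adjusted p = 0.0417), and without shARF replicate 5 its adjusted p was 0.127. IFITM1 was higher, at 709, 818 and 788 TPM against 428, 648 and 543 TPM (log2 difference 0.53, adjusted p = 0.0272), and the call was lost without Both replicate 3 (adjusted p = 0.0920) and without 3 other libraries. IFITM2 fell from 517, 588 and 572 TPM to 214, 199 and 203 TPM (log2 difference −1.44, adjusted p = 1.34e-05). CXCL10 fell from 1.07, 1.06 and 1.35 TPM to 0, 0.258 and 0.373 TPM (log2 difference −2.29, adjusted p = 0.0176), with an adjusted p of 0.0520 to 0.0620 without any 1 of the shARF libraries.

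The response to MLN4924 itself differed between the lines for most members. The interaction, (Both minus shARF) minus (MLN minus Ctrl) on the log2 scale in a fit of all 12 libraries, was called for 40 of the 48 genes, all with a lower log2 change in PC3-shp14ARF than in PC3 cells, where 17.1% of all genes were called in this direction. In the other direction 11.2% of all genes were called (3.52% beyond 1 and 1.11% beyond 2) and 0 of the 48 (limma, also 0 at an unadjusted p below 0.05), with CXCL10 called there at 1.80 without Both replicate 2 (adjusted p = 0.0186). Scaling by the median of ratios turned the split over all genes from 2229 higher and 3416 lower into 3216 higher and 2790 lower, and left 38 of the 48 members called lower. The median interaction was −1.01 for the 48 genes and −0.09 for all genes. The interaction was beyond −1 for 25 of the 48 genes (4.95% of all genes) and beyond −2 for 2 (1.45%). The call of IRF7 (−0.46, adjusted p = 0.0333) was lost without any of 8 of the 12 libraries, with an adjusted p of up to 0.0836 without shARF replicate 5. The largest interactions were those of IFITM1 (−2.16, SE 0.18, adjusted p = 5.21e-06), GBP1 (−2.03, SE 0.14, adjusted p = 1.51e-06), IFIT3 (−1.95) and PSMB9 (−1.83).

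**Figure D2:**
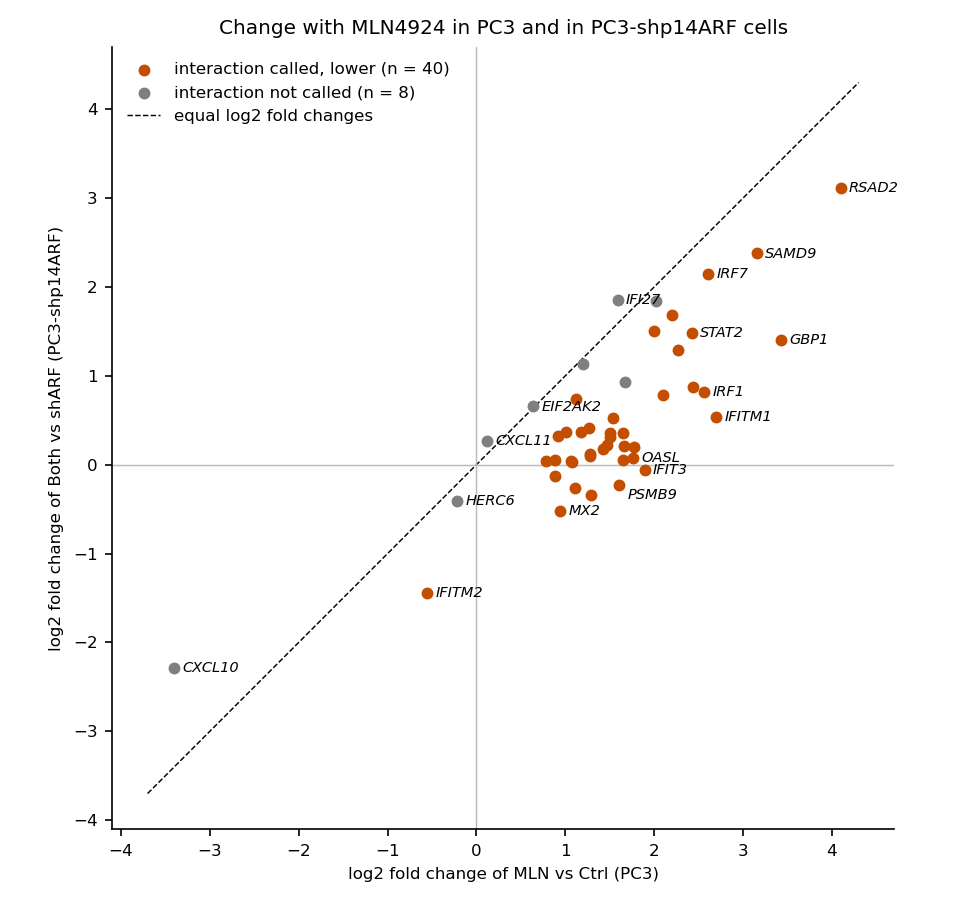
Each point is 1 of 48 interferon-stimulated genes, with the log2 fold change of MLN vs Ctrl on the x axis and that of Both vs shARF on the y axis, and the dashed line marks equal changes. Of the 48 points, 44 lie under the line, 40 with a called interaction and 4 of the 8 without, and a group of points with x between 0.79 and 1.89 lies near 0 on the y axis.

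The 44 genes that rose in PC3 cells fell into groups. The share of all genes with the same combined calls was not counted, so the group sizes describe the members only. For 19 of them the gene also rose in PC3-shp14ARF cells, with a called negative interaction, among them RSAD2, SAMD9, GBP1, IFI6, STAT2, IRF1, IRF7 and IRF9. For 18 the rise was not called in PC3-shp14ARF cells and the interaction was called for each, among them ISG15, IFIT1, IFIT3, OAS1, OAS2, OASL, MX1, MX2, PSMB9 and TRIM22. IFIT2 and USP18 were called in opposite directions in the 2 lines. The other 5, EIF2AK2, EPSTI1, IFI27, ISG20 and SAMD9L, rose in both lines and had no called interaction. EIF2AK2, the kinase PKR that stops translation on double-stranded RNA, rose by 0.64 in PC3 and by 0.66 in PC3-shp14ARF cells (interaction 0.02, SE 0.12, adjusted p = 0.928). ISG20, a 3' to 5' exonuclease, was at 13.6, 15.9 and 14.3 TPM in Ctrl, 33.2, 34.9 and 32.6 TPM in MLN, 9.79, 11.2 and 11.5 TPM in shARF and 22.9, 23.3 and 25.2 TPM in Both (interaction −0.07, adjusted p = 0.701). Its 4 conditions did not overlap, and the drug added 1.20 and 1.13 on the log2 scale. Across the 48 genes, the log2 fold changes in the 2 lines gave a Pearson correlation of 0.813 and a rank correlation (Spearman) of 0.679, and all genes tested gave 0.770 and 0.741. This describes genes, which are not independent replicates.

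A negative interaction can hold a higher level with the vehicle, a lower level with the drug, or both, and all of these were found. Here too the combined calls were counted among the members only, with no share over all genes. For 15 of the 40 genes shARF was called above Ctrl and Both below MLN, among them ISG15, IFIT2, IFIT3, IFITM1, IRF1 and USP18. For 12 Both was below MLN and shARF was not called above Ctrl (HERC5 was called below it), among them OASL, MX2, TRIM22, SP110, IFI6, RSAD2 and STAT2. For 11 only shARF above Ctrl was called, DTX3L, GBP1, IFI35, IFI44L, IFITM2, IRF9, PARP14, PARP9, PSMB9, TRIM21 and XAF1. This split rests on the adjusted threshold. With limma's unadjusted p below 0.05, DTX3L, IFITM2, PARP14, PARP9 and XAF1 of this group would count as reduced with the drug too. By the same rule STAT2, OAS2 and RSAD2, of the 12 genes above, would count as higher with the vehicle too. IFI44 and MX1 had neither call, and at that unadjusted p MX1 would count as reduced with the drug. GBP1 shows the last of these forms, with shARF at 49.0, 56.7 and 57.2 TPM, above Ctrl, and Both at 132, 162 and 137 TPM, within the range of MLN. OASL shows the other, with Ctrl and shARF both between 37.5 and 44.9 TPM, MLN at 136, 141 and 141 TPM and Both at 41.1, 52.4 and 47.5 TPM.

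With the vehicle alone, PC3-shp14ARF cells had more RNA of many members than PC3 cells. In shARF against Ctrl, 27 of the 48 genes were higher (21% of all genes were) and 3 were lower (20.4% of all genes). The lower genes were CXCL10, ISG20 and HERC5. The changes were small, with a median of 0.39 over the 48 genes against 0 over all genes, and 5 genes passed a log2 fold change of 1 upward (3.87% of all genes) and 0 passed 2 (1.07%). CXCL10 was the 1 gene lower by more than 1 (6.6% of all genes), and 0 were lower by more than 2 (2.12%). The 5 higher genes beyond 1 were GBP1, PSMB9, IRF1, IFITM1 and OAS1, and their number was 8 without shARF replicate 1 and 3 without shARF replicate 3. Of the 27 genes, 25 were also higher in MLN, as were 44 of all 48 members, so the overlap is near the share of the whole family. That comparison uses the same Ctrl libraries. The others of the 27 were IFITM2 and HERC6.

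GBP1 had the largest rise in shARF, 3.89-fold over Ctrl (log2 difference 1.95, SE 0.07, adjusted p = 7.08e-05). PSMB9, the immunoproteasome subunit LMP2, went from 6.51, 6.87 and 7.12 TPM in Ctrl to 19.2, 22.6 and 22.2 TPM in shARF (log2 difference 1.63, SE 0.08, adjusted p = 0.000171). In MLN it was at 20.8, 24.0 and 18.5 TPM and in Both at 18.2, 15.9 and 20.8 TPM, so its level overlapped among all conditions other than Ctrl. PSMB8 was higher by 1.00 in shARF. IRF1 went to 19.6, 19.6 and 23.1 TPM in shARF (log2 difference 1.24, adjusted p = 0.000929), above every Ctrl library and below every library with MLN4924. STAT2 (0.25, adjusted p = 0.0580, and 0.0164 without shARF replicate 1) and IRF7 (−0.14, adjusted p = 0.360) were not called, and IRF9 was called at 0.26 (adjusted p = 0.0348), a call lost without any of 4 libraries, among them shARF replicate 5 (adjusted p = 0.1001). All 4 membrane barrier genes, the IFITM genes and BST2 (tetherin, which holds budding viruses on the cell), were higher, by 0.37 to 1.04. CXCL10 was lower in shARF, with no overlap (log2 difference −1.67, adjusted p = 0.00353). HERC5 was lower by 0.20 (adjusted p = 0.0304), and without shARF replicate 1 its adjusted p was 0.0855, with the call also lost without 4 other libraries.

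Under MLN4924, the cells with the shRNA had less RNA of most members. In Both against MLN, 29 of the 48 genes were lower (20.6% of all genes were) and 0 were higher (11.8% of all genes, 2.18% beyond 1 and 0.607% beyond 2), where limma gave 1 higher gene, HERC6, at an unadjusted p below 0.05. All 29 were genes that MLN4924 had raised in PC3 cells, as it had 44 of all 48 members, and both comparisons use the MLN libraries. The median was −0.54 over the 48 genes and −0.08 over all genes, and 10 genes were lower by more than 1 (6.84% of all genes) and 0 by more than 2 (1.8%). Without Both replicate 2 the count of lower genes was 19. Over all genes the split was 2352 higher and 4112 lower, and with scaling by the median of ratios it was 3663 and 3466, with 1 member higher and 26 lower.

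OASL had the largest difference, −1.57 (standard error 0.09, adjusted p = 0.000438), followed by MX2, −1.56 (adjusted p = 0.00818). MX2, a dynamin-like GTPase against retroviruses, was at 5.27, 3.27 and 5.21 TPM in MLN and at 1.09, 1.84 and 1.52 TPM in Both, where it lay below every Ctrl library (2.13, 2.34 and 2.40 TPM). TRIM22, an antiviral ubiquitin ligase, was at 15.4, 11.3 and 12.9 TPM in MLN and 3.51, 5.27 and 4.90 TPM in Both (log2 difference −1.52, adjusted p = 0.00307), and Ctrl with 3.82 to 4.45 TPM overlapped with Both. IFIT3 was lower by 1.36 on the log2 scale (adjusted p = 0.00164) and ISG15 by 1.08 (adjusted p = 0.00125). All 4 IFIT genes and all 4 OAS genes were called lower, and 0 of the 3 genes PARP9, PARP14 and DTX3L, with values from −0.32 to −0.28 (limma, each at an unadjusted p below 0.05). The calls of IFIT1, IFIT5, OAS1 and OAS3 were each lost in at least 1 fit that left out a library. STAT2 (−0.69, adjusted p = 0.00118), IRF7 (−0.60) and IRF1 (−0.50) were lower and IRF9 was not called (−0.12, adjusted p = 0.249). The call of SAMD9 (−0.66, adjusted p = 0.0195) was lost without any of 4 of the 6 libraries, with an adjusted p of up to 0.0740 without Both replicate 2. The call of IRF1 was lost without Both replicate 2 (adjusted p = 0.0508) or MLN replicate 2 (0.0522).

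Genes of the pathway that are not among the 49 were read from a separate list of 55. Of its 22 interferon genes, 11 were listed at 0 in every library, 7 had a mean under 0.1 TPM, and 4 were tested. IFNG, the gene of interferon gamma (chr12:68154768-68159740 of GRCh38, minus strand), was listed at 0 in all Ctrl and all shARF libraries. It was at 62.8, 43.4 and 44.3 TPM in MLN and at 12.9, 18.6 and 20.03 TPM in Both. The gene was thus seen with MLN4924 alone, and every Both library lay below every MLN library (log2 difference −1.55, SE 0.22, adjusted p = 0.00434). No fold is given against libraries at 0, and since both vehicle conditions were at 0, the interaction has the same value (−1.55, adjusted p = 0.00154). IFNG-AS1, an antisense RNA that spans the gene on the other strand, was at 0 in every MLN and Both library and at 0.148 TPM or less in the others. Whether reads were counted by strand is not stated, and without strand they cannot be told apart. IFNB1, the gene of interferon beta, was at 0.344 to 0.351 TPM in MLN and at 0 to 0.182 TPM in Ctrl (log2 difference 1.67, adjusted p = 0.0201). In PC3-shp14ARF cells it was at 0 to 0.366 TPM in shARF and 0 to 0.530 TPM in Both and was not called (adjusted p = 0.397). It was listed at 0 in 5 of the 12 libraries. IFNE and IFNL1 were not called in MLN against Ctrl.

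Interferon gamma is known mainly as a product of T cells and natural killer cells, so the leukocyte markers were read beside it. CD3E was at 0.0558 TPM or less in every library. PTPRC, the gene of the leukocyte antigen CD45, was at 0 to 0.0726 TPM in the vehicle libraries and at 0.252 to 0.322 TPM in the MLN4924 libraries, and it was called higher in both lines (log2 fold changes 1.62 and 1.73). The sum of the 4 leukocyte markers was 36.0 to 50.6 TPM in Ctrl, 5.71 to 8.06 in MLN, 41.3 to 49.8 in shARF and 5.67 to 8.10 in Both, nearly all of it LYZ, and without LYZ it was 0.0793 to 0.395, 0.412 to 1.07, 0.140 to 0.477 and 0.433 to 0.623 TPM. The part of such cells in the levels of IFNG and of the interferon-stimulated genes was not tested.

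Receptors and kinases moved in mixed directions. Of the 9 receptor and kinase genes listed, 4 were higher and 4 lower in MLN against Ctrl (32.2% and 29.4% of all genes), and 6 were lower in shARF against Ctrl (20.4% of all genes). The receptor chain IFNLR1 for interferon lambda rose with the drug in both lines (1.20 and 1.34), and so did IFNGR1 for interferon gamma (0.99 and 0.83), while IFNGR2 fell (−0.95 and −0.44). JAK1 was lower in MLN (−0.60) and in shARF (−0.56) than in Ctrl, and its interaction was 0.64 (adjusted p = 0.000277). TYK2 changed by −0.35 in MLN, IFNAR1 by 0.23 and IFNAR2 by −0.49, each called.

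Among the 11 sensors and adaptors tested, 7 were higher and 2 lower in MLN (32.2% and 29.4% of all genes), and 4 were lower in shARF (20.4%). AIM2, a sensor of DNA in the cytosol, was at 0.223 to 0.529 TPM in Ctrl and at 5.46 to 7.71 TPM in MLN (log2 difference 3.74, adjusted p = 0.000114), and rose by 2.88 in PC3-shp14ARF cells. CGAS, whose product makes the messenger for STING, rose by 1.10 and 1.40, with an interaction of 0.30 in the other direction from that of the members (adjusted p = 0.0303). IKBKE, a kinase of IRF3 and IRF7, fell with each treatment, from 34.3, 31.0 and 28.8 TPM in Ctrl to 6.81, 7.77 and 8.27 TPM in MLN, 4.19, 5.12 and 4.40 TPM in shARF and 1.50, 1.64 and 1.31 TPM in Both. Its log2 fold change was −2.03 in MLN and −2.75 in shARF. Of the 12 genes that restrain the response, 6 were higher and 3 lower in MLN (32.2% and 29.4% of all genes), and 8 had a negative interaction called (17.1%). SOCS1, an inhibitor of JAK kinases, was at 5.06, 3.80 and 5.79 TPM in MLN and at 3.24 TPM or less elsewhere (MLN against Ctrl 1.10, adjusted p = 0.0106, interaction −1.49, adjusted p = 0.00733). TREX1, a nuclease of cytosolic DNA, rose by 1.06 in MLN (interaction −0.99), RNASEH2A rose by 1.19 (interaction −0.49), and the phosphatase PTPN2 fell by 1.08.

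Members that lie side by side in the genome did not all move alike. The 49 genes are on 17 chromosomes, by the GENCODE annotation of GRCh38. IFIT2, IFIT3, IFIT1 and IFIT5 lie on chromosome 10 between 89283694 and 89421605, and each rose in MLN and fell in Both against MLN. In Both against MLN, the calls of IFIT1 and IFIT5 did not hold in every fit that left out 1 library. OAS1, OAS3 and OAS2 lie on chromosome 12 between 112905856 and 113011723 with interactions of −1.57, −1.01 and −1.01. HERC6 and HERC5, 14021 bases apart on chromosome 4, differed, with a log2 ratio of HERC5 to HERC6 that was 1.13 higher in MLN than in Ctrl and 0.66 lower in shARF than in Ctrl, in each case with no overlap (exact two-sided permutation p = 0.1, the smallest possible). SAMD9 and SAMD9L, 12032 bases apart on chromosome 7, both rose, and the ratio of SAMD9 to SAMD9L was 1.13 higher in MLN. CMPK2 with RSAD2 on chromosome 2, PARP9 with DTX3L on chromosome 3 and PSMB8 with PSMB9 on chromosome 6 overlap on opposite strands, and without stranded counting reads from the shared stretch cannot be assigned. CMPK2 rose by 2.44 in MLN and by 0.98 in shARF, and RSAD2 by 4.10 in MLN, while its 0.34 in shARF was not called (adjusted p = 0.0896).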

How the data were processed

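RNA-seq of PC3 and PC3-shp14ARF cells with DMSO or MLN4924 was deposited as 1 table. The authors trimmed adapters, used CLC Genomics Workbench to map the reads to hg38 and to quantify the genes of Ensembl's GRCh38 annotation, and deposited TPM values. Every column sums to the same total, so TPM carry no depth. Strandedness is not given in the sources used here. The submitters described 4 samples, and the 3 columns per condition were read as its replicates from the study's readme.

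log2(TPM + 0.1) was tested for the 19932 genes that averaged 0.1 TPM or more by limma 3.58.1 under R 4.3.3 (lmFit, then eBayes with a trend), and p-values were adjusted by Benjamini-Hochberg over all of these genes. The 4 pairwise comparisons used the 6 libraries of their groups, and the interaction all 12. Fits were tested on simulated data. Values by library are given for the transcription factors, ISG15, USP18 and, in any comparison, the 4 largest called changes in each direction (with 1 TPM or more on average in a condition). IFI6, EIF2AK2, CXCL11, IFNG-AS1 and, of the pathway, IFNGR1 and IFNGR2 were added after their values were seen. A few genes of the pathway and marker lists are not reported here. Members and lists were chosen with earlier results of these data known. Promoters are from RefSeq and gene positions from GENCODE. Alternatives were pseudocounts of 1 and 0.01, a filter at 1 TPM or none, median-of-ratios scaling, no trend, a replicate block, all libraries in 1 fit, a log2 cutoff of 2 and each library left out.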

Additional observations from a re-analysis of the deposited data

Results flagged for a closer look

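The response to MLN4924 differed between PC3 and PC3-shp14ARF cells, by limma's interaction test, for 40 interferon-stimulated genes. All these interactions were negative. For the members with values by library and a called interaction, on the log2 scale, the interaction was −2.16 for IFITM1, −2.03 for GBP1, −1.95 for IFIT3, −1.83 for PSMB9, −1.74 for IRF1, −1.69 for OASL, −1.63 for IFIT2 and −1.59 for ISG15. It was −1.47 for MX2, −1.45 for TRIM22, −1.37 for USP18, −0.99 for RSAD2, −0.94 for STAT2 and −0.89 for IFITM2. It was −0.78 for SAMD9, −0.59 for HERC5, −0.46 for IRF7 and −0.38 for IRF9. Of the pathway genes outside the family, this list takes those called beyond a log2 change of 1 in MLN or shARF against Ctrl. JAK1, TYK2, IFNAR1 and IFNAR2 were added to it. Of these, IFNG (−1.55), SOCS1 (−1.49), TREX1 (−0.99) and RNASEH2A (−0.49) differed in the same direction, and CGAS (0.30) and JAK1 (0.64) in the other. Outside this selection, JAK2 (0.77) and IFNGR2 (0.50) were also called positive. The called negative ones included TMEM173, the gene of STING (−0.89), PTPN6 (−0.54), IRF3 (−0.44), SOCS3 (−0.38) and IL10RB (−0.36).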

How the results depend on the processing

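TPM hold no depth, and 3 libraries a condition limit the precision. Of 1606 values of single named genes under the alternatives, 1497 kept direction and side of the threshold, 79 lost the call, 18 gained it and 12 changed sign, none of the 12 among called results. With a log2 cutoff of 2, MLN vs Ctrl kept 12 higher and 1 lower members, Both vs shARF 3 and 1, shARF vs Ctrl 0 and 0, and Both vs MLN 0 lower, since fewer genes can pass. Both vs shARF had 2 lower members with no filter and 2 with median-of-ratios scaling, and 1 lower beyond 1 with a pseudocount of 1 or 0.01. shARF vs Ctrl had 5 lower members with the filter at 1 TPM. Both vs MLN had 1 higher member with median-of-ratios scaling or all libraries in 1 fit, and the interaction 1 higher with a pseudocount of 1. The cause of these shifts was not tested. Median-of-ratios scaling gave IFIT3 0.038 in Both vs shARF, GBP1 0.011 in Both vs MLN and ISG20 0.031 in the interaction, each of the other sign.

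With each library left out in turn, Both vs shARF had 1 to 4 lower members, and 1 to 2 lower beyond 1. shARF vs Ctrl had 3 to 8 higher members beyond 1, Both vs MLN 19 to 28 lower and the interaction 0 to 1 higher. In Both vs shARF, IFIT3 lay between −0.17 and 0.028, ISG15 between −0.024 and 0.13 and OASL between −0.0055 and 0.17. In shARF vs Ctrl, MX2 lay between −0.29 and 0.074 and TRIM22 between −0.20 and 0.037, and in Both vs MLN, CXCL10 lay between −0.99 and 0.14.

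Deviations of same-numbered libraries correlated between −0.147 and 0.0584, and these values do not show whether such libraries shared a culture or a batch. With the replicate block on shared numbers, MLN vs Ctrl had 40 higher and 1 lower members, shARF vs Ctrl had 0 higher and 0 lower (0 and 0 beyond 1) and 0 of all genes called, with TRIM22 at 0.0054, and the interaction had 34 lower. In a pairwise fit of 6 libraries the block leaves little to estimate the spread from, and why the calls were lost was not tested. The other pairs of conditions share 1 number, and the block could not be fitted.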
